A study of Mus musculus with 18 samples.

Results

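The IL-12 cytokine family was followed in mouse bone-marrow-derived dendritic cells (BMDC) through the genes of its 5 subunits, Il12a, Il12b, Il23a, Il27 and Ebi3. All 5 were chosen by name, were listed among the 23420 genes of each library, and passed the filter on low counts that left 11876 genes for testing. The cells came from C57BL/6 mice, were grown with GM-CSF, and were sorted live for high CD11c (an integrin on dendritic cells) after 8 hours of treatment. Cells labelled Bat3 fl/fl CD11c Cre (cKO) were given LPS, a bacterial cell wall component sensed through TLR4, or medium. Wild-type (WT) cells were given LPS with IL10 + TGF-β, LPS alone, IL10 + TGF-β alone, or medium. IL-10 and TGF-β are immunosuppressive cytokines and are called the cytokines here. Each of the 6 groups had 3 libraries. In the cKO cells the CD11c promoter drives the Cre recombinase, so only cells that have expressed CD11c can lose the gene. The labels do not say whether the WT cells carry the Cre transgene, so deletion of Bat3 and presence of Cre cannot be told apart. Separate animals or cultures behind a group's 3 libraries are not stated, so p-values measure only the spread between these libraries. In each cKO group the female-specific RNA Xist, given below, was high in the first library only. The libraries of a cKO group therefore did not all come from the same cells. Elsewhere the spread may be technical.

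Cytokines of this family are heterodimers that share chains. The p40 chain, from Il12b, pairs with the p35 chain, from Il12a, to give IL-12, and with the p19 chain, from Il23a, to give IL-23. EBI3, from Ebi3, pairs with the p28 chain, from Il27, to give IL-27, and with p35 to give IL-35. Activated dendritic cells are a main source of IL-12, which drives T helper 1 responses, and of IL-23, which maintains T helper 17 cells, while IL-27 both promotes and restrains T cell responses. RNA levels of the subunits were measured here and the proteins were not.

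Levels are given as CPM, expected counts scaled to library size. The libraries held between 8056831 and 12068759 expected counts. Bag6, the current name of Bat3 and a chaperone of newly made membrane proteins, was at 9.36 ± 2.68 CPM in cKO cells given LPS, against 24.0 ± 0.757 CPM in WT cells given LPS (SD, n = 3 each), and at 5.56 ± 1.52 CPM in cKO cells in medium, against 23.5 ± 0.982 CPM in WT cells in medium (SD, n = 3 each). Some libraries stood apart from their groups. WT cytokines replicate 1 had 234 expected counts of Il12b, where the other 2 libraries of that group had 2 and 2. Over 6 genes of mature dendritic cells (Ccr7, Ccl22, Ccl17, Cd83, Fscn1 and Il4i1), genes picked once the values were known, its summed level was 645 CPM, against 46.6 and 51.5 CPM in the other 2. WT medium replicate 3 had a sum of 934 CPM over the same genes, against 2843 and 2572 CPM. The first library of each cKO group had the female-specific RNA Xist at 1014 CPM (LPS) and 526 CPM (medium), against at most 1.12 CPM in the other 16 libraries.

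The sequences before the transcription start are printed for the members found in the RefSeq promoter table (GRCm38.p6, the build of the deposited files), because Il12b and Ebi3 mark the widest and the narrowest response to LPS below and Il12a has a pair of annotated starts. Each window holds the 250 bases upstream of the start on the plus strand. Capitals mark matches, on either strand, to motif letters chosen with the sequences in view. Il12a spans chromosome 3 from 68690644 to 68698550, Il12b chromosome 11 from 44400063 to 44414677, and Ebi3 chromosome 17 from 55952623 to 55957022, all on the plus strand.
Il12b, chr11:44399813-44400062: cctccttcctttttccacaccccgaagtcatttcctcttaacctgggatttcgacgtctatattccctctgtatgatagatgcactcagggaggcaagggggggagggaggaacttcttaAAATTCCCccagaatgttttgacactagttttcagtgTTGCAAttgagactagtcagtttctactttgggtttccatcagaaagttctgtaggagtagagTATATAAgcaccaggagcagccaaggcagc
Il12a, first start, chr3:68690394-68690643: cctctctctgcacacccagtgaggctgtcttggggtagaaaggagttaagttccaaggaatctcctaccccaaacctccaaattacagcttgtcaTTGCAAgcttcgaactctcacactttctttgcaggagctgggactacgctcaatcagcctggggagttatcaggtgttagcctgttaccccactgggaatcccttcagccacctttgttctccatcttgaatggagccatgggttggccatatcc
Il12a, second start, chr3:68691174-68691423: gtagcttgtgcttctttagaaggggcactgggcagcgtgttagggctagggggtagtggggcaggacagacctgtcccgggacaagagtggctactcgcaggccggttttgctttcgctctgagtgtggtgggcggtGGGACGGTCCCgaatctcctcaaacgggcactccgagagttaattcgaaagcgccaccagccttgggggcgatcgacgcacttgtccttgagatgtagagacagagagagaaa
Ebi3, chr17:55952373-55952622: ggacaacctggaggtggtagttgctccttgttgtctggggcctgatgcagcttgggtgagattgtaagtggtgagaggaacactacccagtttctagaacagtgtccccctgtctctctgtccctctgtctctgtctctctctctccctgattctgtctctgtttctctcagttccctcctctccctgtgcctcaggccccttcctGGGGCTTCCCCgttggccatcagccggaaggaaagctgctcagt
The Il12b window held an NF-kB half-site (GGGNATTT, read on the minus strand as AAATTCCC) 130 to 123 bases before the start, a C/EBP half-site (TTGCAA) at 93 to 88 and a TATA-type box (TATANAA) at 30 to 24. The first Il12a window held the same C/EBP letters 155 to 150 bases before its start. In the second Il12a window, a pair of overlapping matches to the NF-kB letters GGGNNNNNCC, 1 on each strand, lay between 113 and 103. The Ebi3 window held a pair of overlapping matches to these letters between 44 and 34, each of which matched on both strands. Of 32851 promoter windows of this length, 45.8% held GGGNNNNNCC, 3.36% GGGNATTT, 5.34% TTGCAA and 10.4% TATANAA. The AP-1 letters TGANTCA (6.75% of windows) and the interferon response letters GAAANNGAAA (2.98%) were not in these 4 windows. These matches describe the letters and were not tested as binding sites. Il23a lies on chromosome 10 from 128296140 to 128298084 and Il27 on chromosome 7 from 126589009 to 126595035, both on the minus strand.

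LPS raised all 5 subunits in cells of both genotypes. In WT cells, Il12b showed the widest rise of the 5 and Ebi3, which was already expressed in medium, the narrowest. Il12b had 420, 384 and 339 CPM in WT cells given LPS, against 0.679, 0.858 and 0.168 CPM in WT cells in medium. The groups were far apart, with 10117 expected counts after LPS against 20 in medium, a ratio of 672 per library size (95% exact interval 435 to 1101, counting error only). Its log2 fold change was 9.36 ± 1.22 (SE, adjusted p = 2.4e-05), rank 12 from the highest of the genes tested. Il12a had 16.6, 28.1 and 21.1 CPM in WT cells given LPS, against 0.340, 0.172 and 0 CPM in medium. The lowest LPS library was far above the highest medium library, and the log2 fold change was 6.91 ± 0.47 (adjusted p = 3.6e-10).

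Il23a, the low-abundance partner of p40 in IL-23, had 5.71, 2.68 and 3.53 CPM in WT cells given LPS, against 0.170, 0 and 0.0841 CPM in WT cells in medium. The medium libraries held 3 expected counts in all, so the rise, 5.36 ± 0.57 on the log2 scale (adjusted p = 8.5e-08), rests on a low baseline. From the counts its ratio was 47.0 (95% exact interval 15.6 to 231). Il27 had 4.03, 7.35 and 5.30 CPM in WT cells given LPS, against 0.255, 0.257 and 0.589 CPM in medium. All 3 LPS libraries lay above all 3 medium libraries, with a log2 fold change of 3.87 ± 0.44 (adjusted p = 1.9e-07). Ebi3 had 168, 216 and 211 CPM in WT cells given LPS, against 74.2, 76.8 and 57.4 CPM in medium. This was a change of 1.51 ± 0.12 on the log2 scale (adjusted p = 1.8e-09), again without overlap of the groups.

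In cKO cells all 5 subunits also rose with LPS. Il12b had 751, 880 and 763 CPM in cKO cells given LPS, against 0.907, 0.770 and 1.40 CPM in cKO cells in medium (log2 fold change 9.59 ± 1.16, adjusted p = 1.0e-05). The changes of Il12a, Il23a, Il27 and Ebi3 were 5.50 ± 0.35, 3.90 ± 0.46, 4.60 ± 0.37 and 1.60 ± 0.12 on the log2 scale, with adjusted p-values from 1.1e-10 to 2.5e-07. Among all genes tested, 58.7% were called (adjusted p under 0.05) in WT cells, 29.8% as higher, and 64.1% in cKO cells, 29.3% as higher. All 5 members rose in each. The median log2 fold change of the 5 members in WT cells was 5.36, against 0.01 over all genes tested. Without WT medium replicate 3 the 5 members were still called, with Il12a at 6.35 and Il12b at 8.93 on the log2 scale.

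**Figure D1:**
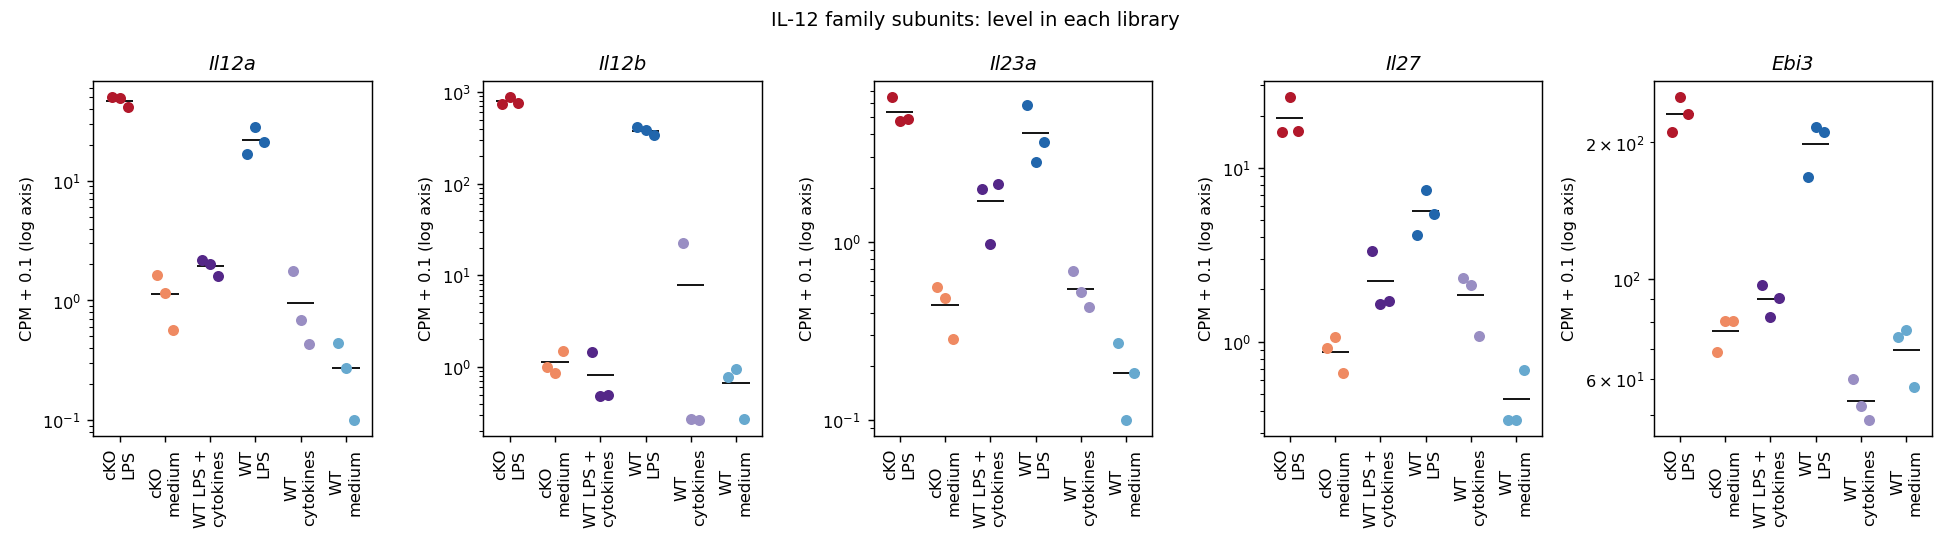
Level of each subunit in each library, as CPM + 0.1 on a log axis, by group. Points are libraries and bars are group means. For Il12b, WT cytokines replicate 1 (22.7 CPM) lies apart from the other 2 libraries of its group (0.169 and 0.164 CPM).

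Comparing the genotypes under LPS sets their levels after LPS side by side. A difference in the response to LPS is the interaction, given further below. Il27, Il12a and Il12b were higher in cKO cells given LPS than in WT cells given LPS, in every library. Il27 and Il12a passed the test, Il12b did so only under some fits, and Il23a and Ebi3 did not pass. Il27, the p28 chain, had 16.0, 25.4 and 16.2 CPM in cKO cells given LPS, against 4.03, 7.35 and 5.30 CPM in WT cells given LPS. The lowest cKO library was above the highest WT library. The log2 fold change was 1.79 ± 0.29 (adjusted p = 0.00010), a 3.45-fold difference. Il12a, the p35 chain, had 50.1, 49.4 and 41.2 CPM in cKO cells given LPS, against 16.6, 28.1 and 21.1 CPM in WT cells given LPS. These groups did not overlap either, and the log2 fold change was 1.10 ± 0.25 (adjusted p = 0.0025). With 2 of 5 members called higher, the background was 16.0% of all genes called higher and 35.3% called in either direction.

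Il12b, the p40 chain, had 751, 880 and 763 CPM in cKO cells given LPS, against 420, 384 and 339 CPM in WT cells given LPS. Every cKO library lay well above every WT library. The difference was 1.07 ± 0.71 on the log2 scale and did not pass in the fit of all 18 libraries (adjusted p = 0.27). The biological coefficient of variation, the replicate spread that this fit shares over groups, was 1.00 for Il12b and 0.116 once WT cytokines replicate 1 was left out, against a common value of 0.133. Without that library, which is in neither of the groups compared, the difference was the same size, 1.07, and passed (adjusted p = 7.7e-05). It also passed when only these 2 groups were fitted (1.09, adjusted p = 5.1e-05) and with limma-voom (1.07, adjusted p = 0.0020). On the log2(TPM + 1) scale it was 0.71 and did not pass (adjusted p = 0.42). The fit of all libraries with no filter on low counts gave 1.07 (adjusted p = 2.7e-17). That fit also called Il12b for the cytokines alone against medium (3.67, adjusted p = 1.9e-48), where 1 library carried the difference, so its p-values for Il12b do not reflect the spread between replicates.

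**Figure D2:**
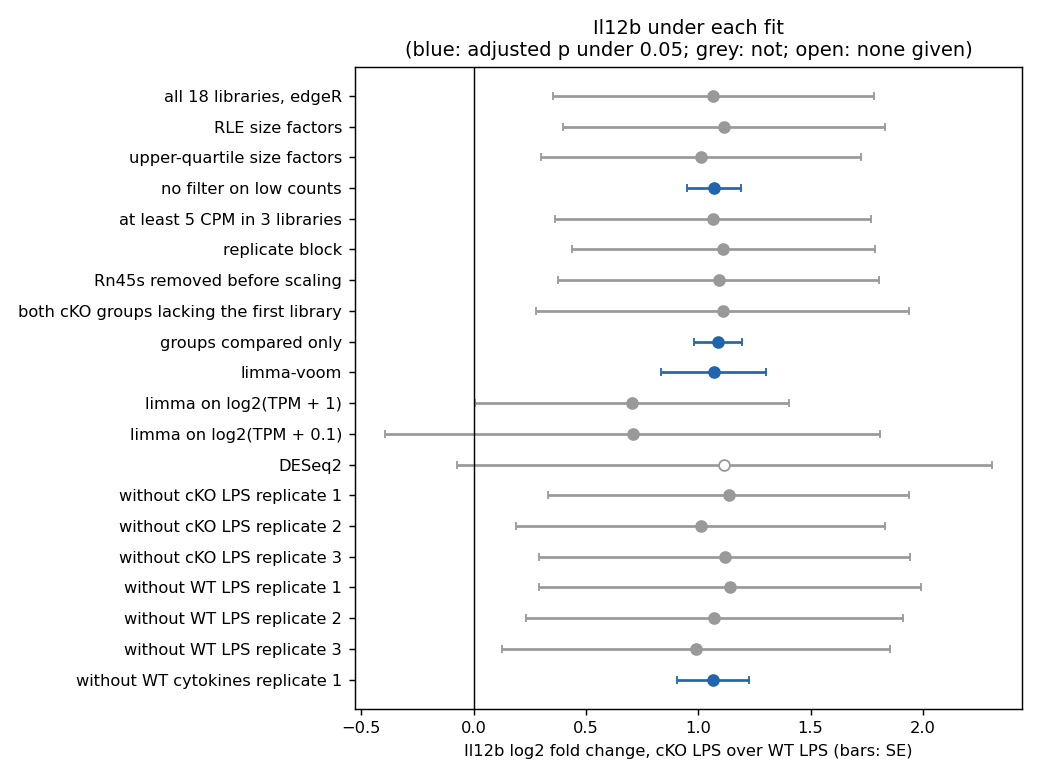
Log2 fold change of Il12b in cKO cells over WT cells, both given LPS, under each fit, with bars for the SE and an open symbol where DESeq2 gave no adjusted p. The estimates from counts lie between 0.99 and 1.14 and both from TPM at 0.71. The SE is narrower and the adjusted p under 0.05 (blue) without WT cytokines replicate 1, with the 2 groups alone, with limma-voom and with no filter on low counts.

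Il23a had 6.37, 4.68 and 4.77 CPM in cKO cells given LPS, against 5.71, 2.68 and 3.53 CPM in WT cells given LPS. The libraries overlapped, and the difference of 0.41 ± 0.34 on the log2 scale did not pass (adjusted p = 0.38). Ebi3 had 211, 252 and 231 CPM in cKO cells given LPS, against 168, 216 and 211 CPM in WT cells given LPS. Its libraries overlapped too, with a log2 difference of 0.22 ± 0.12 (adjusted p = 0.16) that was -0.13 on the log2(TPM + 1) scale, where the median of all genes was -0.31 and 11.7% of called genes were higher, against 45.3% in the count fit. On that scale the difference was 1.37 for Il27, 0.74 for Il12a and 0.71 for Il12b. Leaving out the first library of both cKO groups left Il27 at 1.90 (adjusted p = 0.00044) and Il12a at 1.05 (adjusted p = 0.011). Of 8 macrophage markers 4 were called higher and 1 lower in cKO cells given LPS. The background was 16.0% of all genes called higher and 35.3% called in either direction. The marker sums were 1926 to 2062 CPM, against 1860 to 2053 CPM in WT cells given LPS. Without the first cKO libraries 1 marker was higher and 1 lower, where 1644 of 12055 genes were called higher and 1938 lower. The part of the macrophage markers in the subunit differences was not tested.

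Il27 overlaps the protein-coding gene Apobr on the opposite strand, and the strandedness of the counts is not given in the sources used here. Apobr averaged 83.5 ± 7.32 CPM in cKO cells given LPS, against 58.9 ± 3.69 CPM in WT cells given LPS (SD, n = 3 each). In WT cells it averaged 85.8 CPM after LPS with the cytokines, 80.9 CPM after the cytokines alone and 57.8 CPM in medium. The part of Apobr reads in the Il27 counts was not tested.

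In medium the subunits other than Ebi3 were near the lower limit of detection. Il12a had 1.54, 1.06 and 0.466 CPM in cKO cells in medium, against 0.340, 0.172 and 0 CPM in WT cells in medium. The groups did not overlap, but they rest on 33 and 6 expected counts, a ratio of 6.04 (95% exact interval 2.50 to 17.6). Il12a was the 1 member called (2.51 ± 0.73 on the log2 scale, adjusted p = 0.015), where 30.2% of all genes were called and 15.8% called higher. Leaving out cKO medium replicate 1 ended that call (2.08, adjusted p = 0.089), as did leaving out WT medium replicate 3 (1.95, adjusted p = 0.062). Il23a, with 11 expected counts in cKO cells and 3 in WT cells, differed by 1.86 ± 0.83 (adjusted p = 0.097). Il27 differed by 1.06 ± 0.58 (adjusted p = 0.18), Il12b by 0.84 ± 2.05 (adjusted p = 0.79) and Ebi3 by 0.14 ± 0.12 (adjusted p = 0.42). In the same comparison 7 of 9 granulocyte markers were higher and 0 lower. Their sums were 972 to 2887 CPM in cKO cells, against 416 to 936 CPM in WT cells. Without the first cKO libraries 2 of these markers were higher, where 1330 of 12055 genes were called higher. The part of the granulocyte markers in the Il12a difference was not tested.

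Whether LPS acted differently by genotype was tested with the interaction, the LPS change in cKO cells minus the LPS change in WT cells. It was 0.73 ± 0.70 for Il27, 0.22 ± 2.39 for Il12b, 0.08 ± 0.17 for Ebi3, -1.41 ± 0.80 for Il12a and -1.46 ± 0.89 for Il23a on the log2 scale. None of the 5 passed with edgeR, and 0 had an unadjusted p under 0.05, where 17.4% of all genes were called. The count was also 0 with DESeq2, which gave Il12b no adjusted p, and with limma-voom. A difference of the LPS response between genotypes was therefore not detectable for these genes. Medium levels of Il12a, Il12b, Il23a and Il27 rest on few counts. Those of Ebi3 do not, with 2455 expected counts in cKO cells and 2453 in WT cells. For Il12b the SE also carries the spread of WT cytokines replicate 1. Without that library its interaction was 0.22 (edgeR, adjusted p = 0.82).

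**Figure D3:**
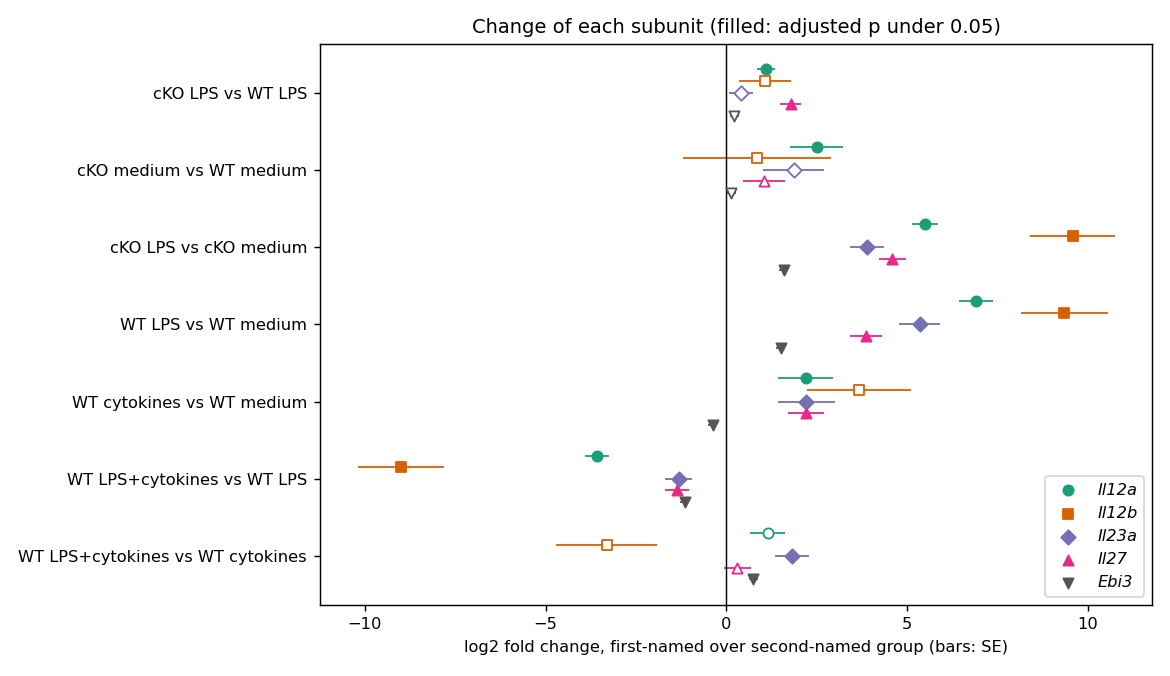
Log2 fold change of each subunit in each of the 7 comparisons, first-named over second-named group, with bars for the SE and filled symbols where adjusted p was under 0.05. All 5 subunits lie right of 0 for LPS in both genotypes and left of 0 when the cytokines were given with LPS.

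Given together with LPS, IL10 + TGF-β lowered all 5 subunits relative to LPS alone. Il12b was at 1.34, 0.385 and 0.402 CPM in WT cells given LPS with the cytokines, against 420, 384 and 339 CPM in WT cells given LPS alone. With 23 expected counts against 10117, its level was 521-fold lower (95% exact interval 347 to 823), and its libraries overlapped with those of WT cells in medium. The log2 fold change was -9.01 ± 1.19 (adjusted p = 5.8e-05), the third lowest of 11876 genes. Il12a was at 2.06, 1.93 and 1.51 CPM with the cytokines, against 16.6, 28.1 and 21.1 CPM with LPS alone. Its log2 fold change was -3.56 ± 0.33 (adjusted p = 6.7e-08), an 11.8-fold lower level that was still above all 3 medium libraries.

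The other 3 members fell less. Il27 was at 3.23, 1.54 and 1.61 CPM with the cytokines and LPS, against 4.03, 7.35 and 5.30 CPM with LPS alone, a log2 fold change of -1.37 ± 0.34 (adjusted p = 0.0026). Il23a was at 1.88, 0.867 and 2.01 CPM, against 5.71, 2.68 and 3.53 CPM with LPS alone, a log2 fold change of -1.32 ± 0.37 (adjusted p = 0.0068). For both genes the libraries did not overlap, but the Il23a call was lost without WT LPS replicate 1 (-0.96, adjusted p = 0.068). Ebi3 was at 96.8, 82.1 and 90.6 CPM, against 168, 216 and 211 CPM with LPS alone. Its groups did not overlap (-1.14 ± 0.12, adjusted p = 2.4e-07). All 5 members were called lower, where 21.1% of all genes were called lower and 40.3% called in either direction.

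These falls came with a shift in cell markers. The summed level of 8 dendritic cell markers ranged from 1077 to 1411 CPM in WT cells given LPS with the cytokines, against 5857 to 6457 CPM with LPS alone, and of the 7 tested 6 fell and 0 rose. The sum of 8 macrophage markers was 3149 to 3489 CPM, against 1860 to 2053 CPM, with 6 higher and 0 lower. The sum of 9 granulocyte markers was 2926 to 3896 CPM, against 748 to 2202 CPM, with 6 higher and 0 lower. Of all 11876 genes tested, 2273 were called higher and 2510 lower in this comparison. No marker of these 3 lists was at 0 in all libraries, while 7 of 8 lymphocyte markers were under 1 CPM in every library and 1 was at 0. The part of this shift in the falls of the subunits was not tested. In RNA from sorted cells in bulk, fewer cells that express a gene and less RNA per cell cannot be told apart.

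With the cytokines alone, Il27, Il12a and Il23a were called higher at levels of at most 2.23 CPM, and Ebi3 was called slightly lower. Il27 was at 2.23, 2.03 and 0.987 CPM in WT cells given the cytokines, against 0.255, 0.257 and 0.589 CPM in WT cells in medium. It was higher in all 3 libraries, by 2.20 ± 0.50 on the log2 scale (adjusted p = 0.0016). Il12a was at 1.65, 0.592 and 0.329 CPM, against 0.340, 0.172 and 0 CPM in medium. Its libraries overlapped, and its change of 2.20 ± 0.76 (adjusted p = 0.030) was lost without WT cytokines replicate 1 (1.37, adjusted p = 0.21), without WT medium replicate 2 (2.20, adjusted p = 0.077) or 3 (1.64, adjusted p = 0.11), and with limma-voom (2.24, adjusted p = 0.078). Il23a was at 0.582, 0.423 and 0.329 CPM, against 0.170, 0 and 0.0841 CPM in medium, from 15 and 3 expected counts. Its change of 2.21 ± 0.79 (adjusted p = 0.033) was lost without WT cytokines replicate 1 (1.99, adjusted p = 0.094) or 2 (2.24, adjusted p = 0.063), without WT medium replicate 2 (1.70, adjusted p = 0.12) or 3 (2.20, adjusted p = 0.074), and on the log2(TPM + 1) scale (0.49, adjusted p = 0.10). Ebi3 was at 59.8, 52.2 and 48.6 CPM, against 74.2, 76.8 and 57.4 CPM in medium. It was the 1 member called lower (-0.38 ± 0.12, adjusted p = 0.022), with overlapping libraries, a call lost without WT cytokines replicate 2 or 3 or WT medium replicate 1 or 2 (adjusted p from 0.069 to 0.11). Calls were made for 4 of 5 members, where 35.2% of all genes were called, 18.3% higher and 16.9% lower, and for 2 of 5 without WT cytokines replicate 1. In the same comparison the granulocyte marker sum was 5295 to 7980 CPM, against 416 to 936 CPM in medium, and the dendritic cell marker sum 1219 to 1676 CPM, against 3421 to 7343 CPM. Their part in these changes was not tested.

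Il12b was at 22.7, 0.169 and 0.164 CPM in WT cells given the cytokines, against 0.679, 0.858 and 0.168 CPM in medium. A single library carried the difference. With it the log2 fold change was 3.67 ± 1.44 (adjusted p = 0.066), and without it -1.69 (adjusted p = 0.10). The same library was high in Ccr7, the homing receptor of migrating dendritic cells (85.3 CPM, against 7.19 and 2.06 CPM in the other 2), in Ccl22, a chemokine of mature dendritic cells (292 CPM, against 5.84 and 6.58 CPM), and in Cd40, the receptor for T cell help (14.9 CPM, against 1.18 and 1.73 CPM). These 3 genes were chosen after their values were seen.

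**Figure D4:**
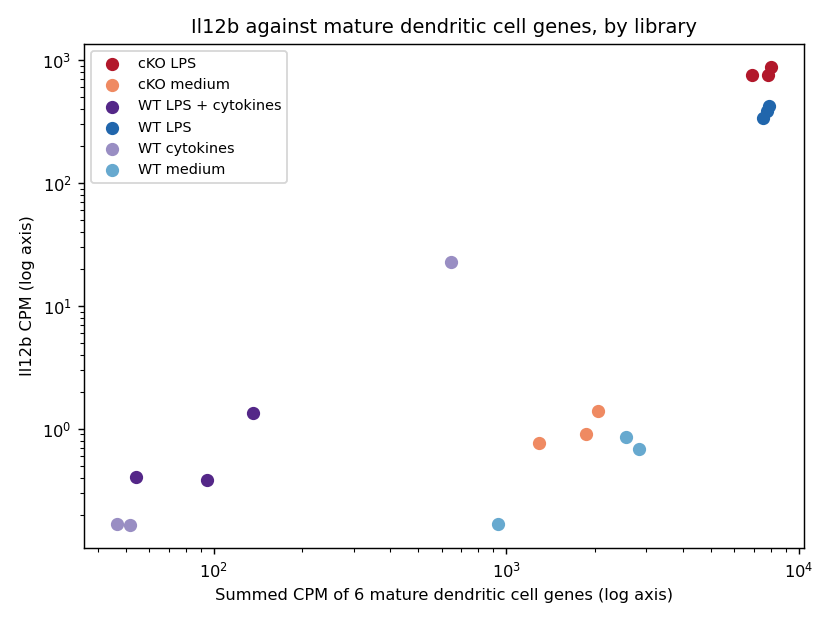
Il12b CPM against the summed CPM of 6 mature dendritic cell genes in each library, both on log axes, coloured by group. WT cytokines replicate 1 (645 and 22.7 CPM) lies between the other 2 libraries of its group and the LPS libraries, while medium libraries with sums up to 2843 CPM have Il12b under 1.5 CPM.

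LPS added to the cytokines was compared with the cytokines alone. Il23a was at 1.88, 0.867 and 2.01 CPM with both, against 0.582, 0.423 and 0.329 CPM with the cytokines alone, and rose by 1.83 ± 0.48 on the log2 scale (adjusted p = 0.0037). Ebi3 was at 96.8, 82.1 and 90.6 CPM, against 59.8, 52.2 and 48.6 CPM, and rose by 0.75 ± 0.12 (adjusted p = 5.0e-05). Neither gene's libraries overlapped. These were the 2 of 5 members called, where 46.9% of all genes were called, 23.9% higher and 23.1% lower. Il12a changed by 1.15 ± 0.48 (adjusted p = 0.057), Il12b by -3.31 ± 1.41 (adjusted p = 0.072) and Il27 by 0.31 ± 0.38 (adjusted p = 0.53). Without WT cytokines replicate 1, Il12a (1.97, adjusted p = 0.0045) and Il12b (2.05, adjusted p = 0.031) were called higher, so that the direction of Il12b turned. With the replicate number as a block, Il12a passed as well (adjusted p = 0.047).

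The LPS change with the cytokines minus that without them was negative and passed for all 5 members. It was -12.67 ± 1.79 for Il12b, -5.76 ± 0.81 for Il12a, -3.56 ± 0.60 for Il27, -3.53 ± 0.86 for Il23a and -0.76 ± 0.17 for Ebi3 on the log2 scale, with adjusted p-values from 3.6e-05 to 0.0055. Of all genes, 20.9% were called and 12.1% called lower. Without WT cytokines replicate 1 all 5 were still called, with Il12b at -7.31 (adjusted p = 0.0016). The Il12b value was the lowest of the 11876 genes in the fit of all libraries.

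Across the 6 groups the order of levels differed by subunit. Il12a and Il12b ran from cKO LPS over WT LPS to the rest without overlap at these steps. Below WT LPS, the other 4 groups overlapped as neighbours. For Il12a their means ran in the order LPS with the cytokines, cKO medium, WT cytokines and WT medium. For Il12b the order was WT cytokines, cKO medium, LPS with the cytokines and WT medium. The place of WT cytokines for Il12b rests on replicate 1 (22.7 CPM, against 0.169 and 0.164 CPM in the others). For Il23a and Ebi3 the cKO LPS and WT LPS libraries overlapped, and both stood clear of LPS with the cytokines. Below that, Il23a was lowest in WT medium and Ebi3 in WT cytokines. Il27 in LPS with the cytokines overlapped with the cytokines alone, both above cKO medium. Levels of the 5 genes over the 18 libraries correlated with r from 0.833 (Il12b with Il23a) to 0.940 (Il12a with Ebi3) on the log2 CPM scale, a description over libraries that share the LPS split.

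Because chains pair, their ratios were formed in each library from TPM, which corrects for transcript length, with 0.1 TPM added. After LPS, Il12b exceeded Il12a by 9.47, 11.3 and 11.7 times in cKO cells, against 16.0, 8.63 and 10.2 times in WT cells. These ranges overlapped, and the log2 ratio differed by -0.06 (exact permutation p = 0.9, two-sided). In WT cells given LPS with the cytokines Il12b was at 0.437, 0.162 and 0.210 times Il12a, below the ratio in every library given LPS alone (log2 difference -5.51, exact permutation p = 0.1). These ratios rest on 15, 4 and 4 expected counts of Il12b. For Il23a over Il12a the log2 difference in the same comparison was 2.21 (exact permutation p = 0.1), with the ratio at 0.856, 0.440 and 1.23 with the cytokines, against 0.324, 0.0914 and 0.159 with LPS alone.

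For the chains of IL-27, Ebi3 exceeded Il27 by 7.43, 5.60 and 8.06 times in cKO cells given LPS, against 23.3, 16.6 and 22.3 times in WT cells given LPS. The excess was smaller in every cKO library (log2 Il27 over Ebi3 higher by 1.56, exact permutation p = 0.1). In WT cells in medium it was 146, 149 and 52.5 times, and after LPS Il27 over Ebi3 was higher by 2.35 on the log2 scale (exact permutation p = 0.1). The medium ratios rest on 3, 3 and 7 expected counts of Il27. Adding the cytokines to LPS changed log2 Il27 over Ebi3 by -0.27 (exact permutation p = 0.5). With 3 libraries a group the smallest p these tests can give is 0.1, and over the 15 ratio tests the lowest adjusted p was 0.15, so none could pass. The reads used do not show how much of each dimer was made.

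**Figure D5:**
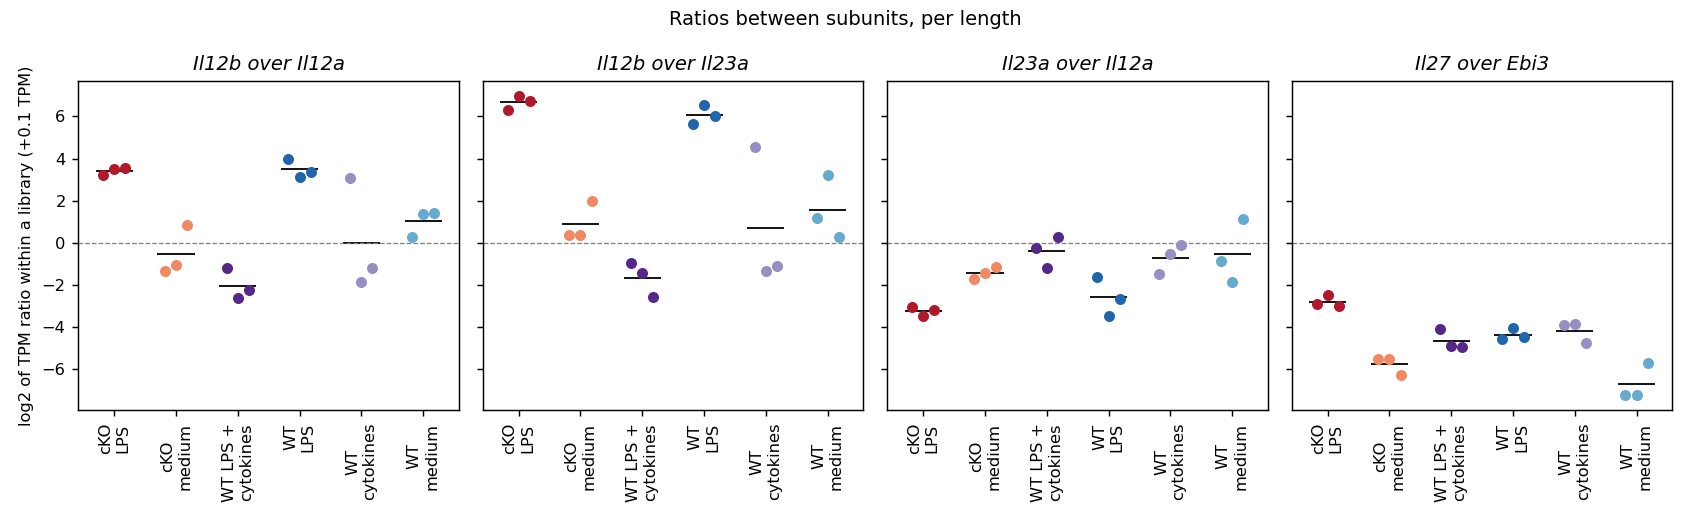
Log2 ratio of TPM between subunits in each library (0.1 TPM added), by group, with bars for group means and a dashed line at equal levels. Il12b over Il12a is near 3.4 to 3.5 after LPS in both genotypes and -2.02 with the cytokines, and Il27 over Ebi3 is higher in cKO cells given LPS (-2.80) than in WT cells given LPS (-4.36).

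The 5 receptor genes of the family were followed with transducers of its signals. Il12rb1, the receptor chain shared by IL-12 and IL-23, was at 30.1, 25.4 and 22.2 CPM in cKO cells given LPS, against 11.3, 18.8 and 14.8 CPM in WT cells given LPS, and differed by 0.79 ± 0.20 on the log2 scale (adjusted p = 0.0046). Il12rb2, the second chain of the IL-12 receptor, was higher by 0.56 ± 0.13 (adjusted p = 0.0024), and Il6st, the gp130 chain used by IL-27, lower by 0.52 on that scale, at -0.52 ± 0.14 (adjusted p = 0.0080). Il23r (0.45 ± 0.35) and Il27ra (-0.39 ± 0.93), the specific chains of the IL-23 and IL-27 receptors, did not pass, which makes 2 of 5 receptor genes higher and 1 lower, where 16.0% of all genes were called higher and 35.3% in either direction. Of the transducers, Stat3 rose (0.52 ± 0.09) and Jak1 fell (-0.30 ± 0.10), while Jak2 (-0.03), Tyk2 (-0.19) and Stat4 (-1.40 ± 0.57, adjusted p = 0.072) did not pass. The Stat4 libraries did not overlap, at 9.62, 8.11 and 8.15 CPM in cKO cells given LPS, against 28.8, 17.4 and 22.3 CPM in WT cells given LPS. In WT medium, part of the same fit, Stat4 was at 13.6, 12.8 and 1.43 CPM. On the log2(TPM + 1) scale 1 receptor gene was higher and 1 lower. Without the first library of both cKO groups, 2 receptor genes were higher and 0 lower. In cKO against WT cells in medium, 2 of 5 receptor genes were higher and 0 lower. There, 15.8% of all genes were called higher and 30.2% in either direction. Il12rb1 was at 6.26, 5.48 and 4.38 CPM in cKO cells in medium, against 2.72, 3.00 and 2.78 CPM in WT cells in medium.

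With the cytokines added to LPS, 3 of 5 receptor genes fell and 0 rose, where 21.1% of all genes were called lower and 40.3% in either direction. Il12rb1 was at 4.03, 2.31 and 2.41 CPM, against 11.3, 18.8 and 14.8 CPM with LPS alone (log2 fold change -2.34 ± 0.24, adjusted p = 1.1e-07). Stat4, the transducer of IL-12, was at 1.08, 0.964 and 0.905 CPM, against 28.8, 17.4 and 22.3 CPM with LPS alone (-4.52 ± 0.72, adjusted p = 0.00020). Il12rb2 (-1.27), Il6st (-0.58), Jak1 (-0.47), Jak2 (-0.94) and Tyk2 (-0.75) also fell, while Stat3 (-0.10), Il23r (-0.18) and Il27ra (-0.45) did not pass. With LPS alone against medium, Il23r (4.45), Il12rb1 (2.39), Stat3 (1.14), Jak2 (0.80), Il12rb2 (0.70) and Jak1 (0.46) rose and Il27ra fell (-2.24), while Stat4 (1.30 ± 0.54), Tyk2 (0.21 ± 0.10) and Il6st (0.07 ± 0.14) did not pass.

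Transcription factors and adaptors known to act on the subunit genes were counted by list, beside a background of 16.0% of all genes called higher and 35.3% called in either direction. In cKO cells given LPS, against WT cells given LPS, 4 of 8 NF-kB and IkB genes rose and 0 fell, led by the inhibitor Nfkbia (0.80 ± 0.11), its relative Bcl3 (1.67 ± 0.27) and the subunit Rela (0.46 ± 0.12). Of 8 IRF and lineage factors, a smaller share than of all genes was called. Among them 1 rose, Irf1 (1.31 ± 0.11), an activator of Il12a and Il27, and 1 fell, Irf4 (-0.71 ± 0.16). Of 10 bZIP factors and repressors 5 rose and 1 fell, with Cebpb, a regulator of Il12b, at 4.58 ± 0.57, Atf3, a repressor of Il12b, at 1.06 ± 0.16 and Jun at 0.81 ± 0.13. Cebpb averaged 69.8 CPM in cKO cells and 2.91 CPM in WT cells given LPS. In medium, where Il12b was at most 1.40 CPM in both genotypes, Cebpb averaged 66.1 CPM in cKO cells and 1.90 CPM in WT cells. Its part in the Il12b levels was not tested. Of 8 LPS sensors and adaptors 5 rose and 1 fell, with Traf6 at 1.00 ± 0.11, Cd14 at 1.37 ± 0.15 and the LPS receptor Tlr4 at -0.81 ± 0.11. Of 8 receptors and transducers of IL-10 and TGF-β 2 rose and 2 fell, among them Tgfbr1 (-1.12 ± 0.17), Il10ra (-0.38 ± 0.11) and Smad7 (0.77 ± 0.27). On the log2(TPM + 1) scale the counts moved downward with all genes, to 2 higher and 1 lower of the NF-kB and IkB genes, 1 and 4 of the IRF and lineage factors, 4 and 3 of the bZIP factors and repressors, 2 and 2 of the LPS sensors and adaptors, and 0 and 5 of the receptors and transducers of IL-10 and TGF-β. Lists differed by genotype in medium too, where 15.8% of all genes were called higher and 30.2% in either direction. In cKO against WT cells in medium, 4 of 8 NF-kB and IkB genes were higher and 1 lower. It was 6 and 0 for the bZIP factors and repressors and 0 and 1 for the IRF and lineage factors. The LPS sensors and adaptors had 1 and 1, the receptors and transducers of IL-10 and TGF-β 2 and 2.

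With the cytokines added to LPS, 2 of 8 NF-kB and IkB genes rose and 5 fell, where 21.1% of all genes were called lower and 40.3% in either direction, with Nfkb2 at -1.0 ± 0.11, Rel, a subunit needed for Il12b in mouse macrophages, at -1.66 ± 0.17 and Nfkb1 at -1.06 ± 0.14. Of the IRF and lineage factors 0 rose and 6 fell, with Irf5, an activator of Il12b, at -1.17 ± 0.09, Batf3, a factor of cross-presenting dendritic cells, at -3.49 ± 0.29 and Irf4 at -1.77 ± 0.16. Of the bZIP factors and repressors 1 rose, Jun (0.65 ± 0.13), and 3 fell, among them Atf3 (-1.83 ± 0.16) and Ets2 (-0.67 ± 0.15). Of the LPS sensors and adaptors 3 rose and 3 fell, with the adaptor Ticam2 at -1.36 ± 0.12, Tlr4 at 0.65 ± 0.11 and Traf3 at 0.71 ± 0.13. Of the receptors and transducers of IL-10 and TGF-β 4 rose and 1 fell, with Tgfbr2 at 0.86 ± 0.08, Tgfbr1 at 0.85 ± 0.15 and Il10ra at -0.71 ± 0.11. The median log2 fold change of the lists was -0.93 for the IRF and lineage factors, -0.61 for the NF-kB and IkB genes, -0.30 for the bZIP factors and repressors, 0.12 for the LPS sensors and adaptors and 0.28 for the receptors and transducers of IL-10 and TGF-β. It was -1.37 for the 5 subunits, against -0.01 over all genes.

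The genes whose log2 CPM ran most like each subunit over the 18 libraries were taken among tested genes whose log2 CPM averaged 2 or more. For Il12b they were Cd40 (r = 0.975), Tnfsf15 (0.971), Ccr4 (0.969) and Fgl2 (0.960). For Il12a they were Fbxo18 (0.985), Sp140 (0.983), Lamp2 (0.981) and Hspa1a (0.980). For Il23a they were Ifitm3 (0.981), H2-T22 (0.970), Tax1bp1 (0.967) and Ptgs2 (0.966). For Il27 they were Akirin1 (0.975), M6pr (0.973), Rffl (0.971) and Pttg1 (0.967), and for Ebi3 Pgap2 (0.983), Rac2 (0.982), Usp22 (0.981) and Ppfibp2 (0.979). No gene was in more than 1 of these lists of 4, but lists this short cannot show whether the subunits differ in their neighbours. Hspa1a, a heat shock chaperone whose counts are uncertain beside its near-identical copy Hspa1b, averaged 1013 CPM in cKO cells given LPS, against 197 CPM in WT cells given LPS, and Ptgs2, the inducible cyclooxygenase, averaged 1552 CPM, against 580 CPM. These values are descriptive, over libraries that share the LPS split.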

How the data were processed

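The 18 RNA-seq libraries of sorted BMDC were placed in 6 groups of 3 by their titles. The labels mention 5 biological replicates in one field and triplicates in another. The deposited values were expected counts and TPM, a length-corrected share of transcripts, per gene, per the file headers. The authors made them with RSEM on mm10 after bcl2fastq, per the submitters' processing notes. Versions and strandedness are not given in the sources used here. Genes that share reads with near-identical copies or overlapping genes are uncertain. Total expected counts ranged from 8056831 to 12068759, and count intervals cover counting error only.

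Whole-number rounding of the expected counts came first. Then filterByExpr kept 11876 of 23420 genes, libraries were scaled with TMM, and all 6 groups were fitted without covariates by edgeR 4.0.16 (R 4.3.3, robust quasi-likelihood F-test). P-values were adjusted by Benjamini-Hochberg over all genes of a comparison, with calls at an adjusted p under 0.05. Sample groups entered 7 comparisons and 2 interactions. Ratios of TPM were compared by two-sided exact permutation tests. The fit was tested on simulated counts. Figures and ratios used Python 3.11.15.

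The members and lists were chosen with earlier results of these data known. The lists were the receptors, transducers, NF-kB and IkB genes, IRF and lineage factors, bZIP factors and repressors, LPS sensors and adaptors, and receptors and transducers of IL-10 and TGF-β. Others were markers of dendritic cells, macrophages, granulocytes, mast cells and basophils, lymphocytes and plasmacytoid cells. Named genes were the 5 members, the receptors and transducers, the 3 called members with the smallest p of each regulator list (or, with no call, the 3 smallest p), the 4 genes most correlated with each member and Bag6. One gene of the transducer list is not reported here, nor are counts over that list.

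Same-numbered libraries deviated together from their group means, with every correlation over 0.1 over 9411 genes, in WT cytokines against WT medium (0.315, 0.179 and 0.399) and in no other comparison. No label states a pairing. Differently numbered libraries were not correlated, so these values do not show whether the libraries are paired. Alternatives were RLE and upper-quartile scaling, no filter or at least 5 CPM in 3 libraries, DESeq2 1.42.0, limma-voom (limma 3.58.1), only the groups compared, a replicate block, log2(TPM + 0.1) and log2(TPM + 1) fitted with limma, removal of Rn45s, leaving out the first library of both cKO groups, and leaving out each library. Leaving WT cytokines replicate 1 out of the other comparisons was chosen after seeing the data.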

Additional observations from a re-analysis of the deposited data

Results flagged for a closer look

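The change with LPS differed between WT cells given the cytokines and WT cells without them, by a test of the difference itself, for all 5 subunits. The difference was -12.67 for Il12b, -5.76 for Il12a, -3.56 for Il27, -3.53 for Il23a and -0.76 for Ebi3 on the log2 scale. Without WT cytokines replicate 1 it was -7.31 for Il12b, -4.93 for Il12a, -3.36 for Il27, -3.31 for Il23a and -0.68 for Ebi3, each still called.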

How the results depend on the processing

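Of 45 member results (5 genes in 7 comparisons and 2 interactions), 29 kept their direction and their side of the threshold under every alternative run, and 16 changed under at least 1. The number of members called in cKO against WT cells in medium was 1, and became 0 without the first library of both cKO groups, 0 with only the groups compared (where Ebi3 alone was tested), 3 with limma on log2(TPM + 0.1), and 0 to 1 with a library left out. In cKO against WT cells given LPS it was 2, became 1 with limma on log2(TPM + 0.1), where Il12a was at 0.76 (adjusted p = 0.26), and ran from 2 to 3 with a library left out. For the cytokines alone against medium it was 4, became 2 with only the groups compared (of 2 tested, Il27 and Ebi3), and ran from 1 to 4 with a library left out. For LPS added to the cytokines it was 2, became 4 with no filter on low counts, 1 with at least 5 CPM in 3 libraries, 1 with only the groups compared (of 3 tested, without Il23a and Il12b), and ran from 2 to 4 with a library left out. With the cytokines added to LPS it ran from 4 to 5.

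Directions turned for Ebi3 in cKO against WT cells given LPS (-0.13 on both TPM scales) and in the genotype interaction (-0.20 on both TPM scales, and -0.022 to 0.20 with a library left out, the lowest without WT LPS replicate 1). They turned for Il12b in the genotype interaction (-0.11 on log2(TPM + 0.1), and -0.19 to 0.66 with a library left out, the lowest without WT medium replicate 2), for the cytokines alone (-1.69 without WT cytokines replicate 1) and for LPS added to the cytokines (-4.18 to 2.05 with a library left out, the highest without that library). Il27 turned for LPS added to the cytokines (-0.14 to 0.51 with a library left out, the lowest without replicate 1 of LPS with the cytokines). The log2 ratio of Il12b over Il12a in cKO against WT cells given LPS ran from -0.24 to 0.20 with a library left out. The cause of these changes was not tested.

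The replicate block changed 1 call, that of Il12a for LPS added to the cytokines (1.15, adjusted p = 0.047), and no other call of a member. Il12b for the cytokines alone passed without WT cytokines replicate 2 (4.27, adjusted p = 0.019) or 3 (4.27, adjusted p = 0.017). The counts of all genes called differed by over 1.5 times from the edgeR fit of all libraries in cKO against WT cells in medium with only the groups compared (2306 against 3583), and in the genotype interaction without the first cKO libraries (1268 against 2070) or on the TPM scales (3323 and 3420). On the log2(TPM + 1) scale the share of calls that were higher was 39.5% for cKO against WT cells in medium (52.4% in that fit), 32.9% for LPS in WT cells (50.8%), 21.6% for LPS in cKO cells (45.7%), 34.2% for the cytokines alone (52.0%), 35.7% for LPS added to the cytokines (50.9%), 12.5% for the genotype interaction (42.0%) and 56.1% for the cytokine interaction (42.4%). With upper-quartile scaling it was 36.9% for LPS in cKO cells and 55.7% for the cytokine interaction, and with RLE scaling 55.2% for the genotype interaction. For LPS in cKO cells the median of all genes was -0.09 in that fit, -0.47 on log2(TPM + 1), -0.60 on log2(TPM + 0.1) and -0.25 with upper-quartile scaling. With at least 5 CPM in 3 libraries Il23a was not tested. DESeq2 gave Il12b no adjusted p in several comparisons. Levels in medium limit the changes of Il12a and Il23a, which rest on 6 and 3 expected counts in WT cells.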

Other observations

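Marker lists of other cell types were counted as well. Of 5 tested markers of mast cells and basophils, 4 were higher and 1 lower in WT cells given the cytokines than in medium. There, 18.3% of all genes were called higher and 16.9% lower. The sums were 14.6 to 30.7 CPM, against 2.19 to 10.1 CPM in medium. Of 5 listed plasmacytoid markers, 2 were under 1 CPM in every library, 1 of them at 0. Of the 3 tested, 2 were higher and 0 lower in WT cells given LPS than in medium. Of all genes, 29.8% were called higher there and 58.7% in either direction. The plasmacytoid list sums were 1010 to 1274 CPM with LPS, against 79.2 to 108 CPM in medium. Of 8 dendritic cell markers, 7 were tested in that comparison and 1 was higher and 2 lower. Lymphocyte marker sums were at most 2.00 CPM in any library. Ccl5, a chemokine of activated cells, was at 501 CPM in WT cytokines replicate 1, against 6.60 and 3.70 CPM in the other 2 libraries of that group.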
